A study of Mus musculus with 8 samples.

Results

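The interferon response genes are 32 listed genes of the innate antiviral program, followed here in CD11b+ cells from the mouse strains NOD and NOD.Idd3. They were chosen by name, with earlier results of these data known. Each is represented by the probe set that carries its symbol alone and has the highest mean over all arrays, and all 32 were found among the 18193 genes measured in this way. CD11b is an integrin subunit of monocytes, macrophages and neutrophils, and the sources used here do not give the tissue the cells came from. NOD mice develop autoimmune diabetes, and NOD.Idd3 is a congenic strain with another allele at the Idd3 locus on chromosome 3. Cells of each strain were incubated for 4 h at 37 °C, either in medium alone (unstimulated) or with 5 µg/ml of peptidoglycan (PGN), the polymer of bacterial cell walls. Each of the 4 groups, NOD unstimulated, NOD with PGN, NOD.Idd3 unstimulated and NOD.Idd3 with PGN, had 2 arrays, labelled biological replicates 1 and 2. Whether a replicate was 1 animal, a pool or another preparation is not in the labels, and the p-values cover the spread between these samples alone, which may be technical. The array names of replicate 1 share a date text that those of replicate 2 lack. The names of both NOD replicate 2 arrays and of unstimulated NOD.Idd3 replicate 1 carry a suffix, RR1. Its meaning is not given in the labels, and within NOD it cannot be told apart from the replicate number. The labels do not say otherwise how the replicate numbers differ.

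Type I interferons are secreted when cells sense nucleic acids or microbial products, and they act through a shared receptor on the same and on neighbouring cells. The receptor activates a complex that includes Stat2 and Irf9, which binds interferon-stimulated response elements in promoters and switches on genes that block virus replication. Interferon gamma acts through its own receptor and on gamma-activated sites, and it is the stronger inducer of the GTPase genes that attack intracellular microbes. In myeloid cells peptidoglycan is sensed mainly by Toll-like receptor 2 and Nod proteins, which signal to NF-kB, while endosomal receptors are among the routes to interferon beta.

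Promoter windows were read from RefSeq (GRCm38.p6), running from 250 bases before to 50 bases after a gene's start, and 26 of the 32 genes have one there. Oas2, Mx1, Mx2, Usp18, Zbp1 and Iigp1 do not. The core of the interferon-stimulated response element, GAAA followed by any 2 bases and GAAA again, was searched on both strands. It lay in a window of 13 of the 26 genes (50%), against 3.99% of all genes with a window and 3.44% of the 32851 windows. The gamma-activated site, TTCNNNGAA, which reads the same on both strands, was found for 6 of 26 genes (23.1%), against 9.55% of all genes and 8.3% of windows. A tandem of 3 GAAA repeats spaced by 2 bases, which contains the first motif, was in the windows of Oas1a, Gbp3 and Irgm1, 3 of 26 genes (11.5%) against 0.133% of all genes and 0.116% of windows. A match is a description of the letters in this window. The windows below were chosen for genes on which the results turn. Ifit1, Ifit3 and Rsad2 are among the genes that moved together between replicate numbers, Gbp2 is a GTPase gene with another pattern, and Irf1 is the gene in which all PGN arrays lay above all unstimulated ones. Each is written 5′ to 3′ in the direction of transcription, with motif matches in capitals.
Ifit1: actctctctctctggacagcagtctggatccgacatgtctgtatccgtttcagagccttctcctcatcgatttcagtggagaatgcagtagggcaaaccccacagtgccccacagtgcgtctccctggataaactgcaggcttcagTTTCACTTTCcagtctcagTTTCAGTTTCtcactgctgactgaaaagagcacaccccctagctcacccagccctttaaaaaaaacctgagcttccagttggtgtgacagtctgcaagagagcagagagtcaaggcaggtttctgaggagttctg
Ifit3: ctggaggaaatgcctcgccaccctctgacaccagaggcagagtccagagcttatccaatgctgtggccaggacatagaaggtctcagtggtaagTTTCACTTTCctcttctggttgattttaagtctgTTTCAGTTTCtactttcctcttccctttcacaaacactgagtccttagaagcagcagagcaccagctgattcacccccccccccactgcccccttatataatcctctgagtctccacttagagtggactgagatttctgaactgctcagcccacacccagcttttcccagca
Rsad2: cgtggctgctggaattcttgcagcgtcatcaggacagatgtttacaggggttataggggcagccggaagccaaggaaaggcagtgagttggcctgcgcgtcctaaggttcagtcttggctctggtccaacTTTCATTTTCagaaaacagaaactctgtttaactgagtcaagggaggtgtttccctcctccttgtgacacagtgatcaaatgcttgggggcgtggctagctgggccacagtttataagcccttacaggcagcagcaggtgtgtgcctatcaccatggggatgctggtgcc
Gbp2: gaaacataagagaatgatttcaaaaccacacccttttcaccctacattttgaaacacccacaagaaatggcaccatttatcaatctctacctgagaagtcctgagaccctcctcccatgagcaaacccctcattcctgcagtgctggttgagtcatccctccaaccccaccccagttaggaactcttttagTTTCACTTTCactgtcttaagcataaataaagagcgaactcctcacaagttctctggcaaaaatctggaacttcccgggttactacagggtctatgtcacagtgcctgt
Irf1: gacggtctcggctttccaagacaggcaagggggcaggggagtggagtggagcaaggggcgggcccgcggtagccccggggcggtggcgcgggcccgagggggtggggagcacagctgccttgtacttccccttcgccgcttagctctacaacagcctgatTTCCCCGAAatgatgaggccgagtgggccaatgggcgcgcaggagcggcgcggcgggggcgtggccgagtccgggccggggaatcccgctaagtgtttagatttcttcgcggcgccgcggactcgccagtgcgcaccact
The Ifit1 window lies on the plus strand at chr19:34640639-34640938, and its 2 response elements begin at bases -104 and -85, counted from the start of the gene. The Ifit3 window, chr19:34583279-34583578 on the plus strand, also has 2, at -156 and -122. The Rsad2 window is on the minus strand at chr12:26456403-26456702 with 1 match at -120, and that of Gbp2 on the plus strand at chr3:142620413-142620712 with 1 match at -59. In these 4 windows the element reads in the reverse orientation, so its letters appear as TTTC repeats. The Irf1 window, chr11:53769764-53770063 on the plus strand, has no match to the response element core and 1 gamma-activated site at -90. Of the 9 genes with a window that differed between replicate numbers by the test given next, 4 had the response element core, as did 9 of the other 17. Ifit2 and Cmpk2, with the largest differences between replicate numbers, had no match to the core in their windows, which are not printed.

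The largest differences in these genes lay between the replicate numbers. Replicate 2 arrays had lower values than replicate 1 arrays for 31 of 32 genes on average over the 4 groups, with Irf1 (0.11 ± 0.14, log2 difference ± SE) the exception. The median log2 difference, replicate 2 minus replicate 1, was -0.96, while that of all genes was 0.03. In a limma fit with group and replicate number as terms, 12 of 32 genes (37.5%) had a p under 0.05 after Benjamini-Hochberg adjustment over all genes, called passing from here on. All 12 were lower in replicate 2. Over all genes, 143 of 18193 (0.786%) were called lower and 1.26% in either direction. The 12 were Ifit1, Ifit2, Ifit3, Mx1, Mx2, Rsad2, Cmpk2, Oasl1, Oasl2, Usp18, Ddx58 and Herc6. Among all genes ranked by this difference, 7 of them held the lowest 7 places, from Ifit2 through Cmpk2, Mx1, Ifit3, Mx2 and Ifit1 to Usp18. Because the list was chosen with earlier results known, the shares and ranks here and below describe it and do not test it. In bulk samples fewer cells of a type and less RNA per cell cannot be told apart.

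**Figure D1:**
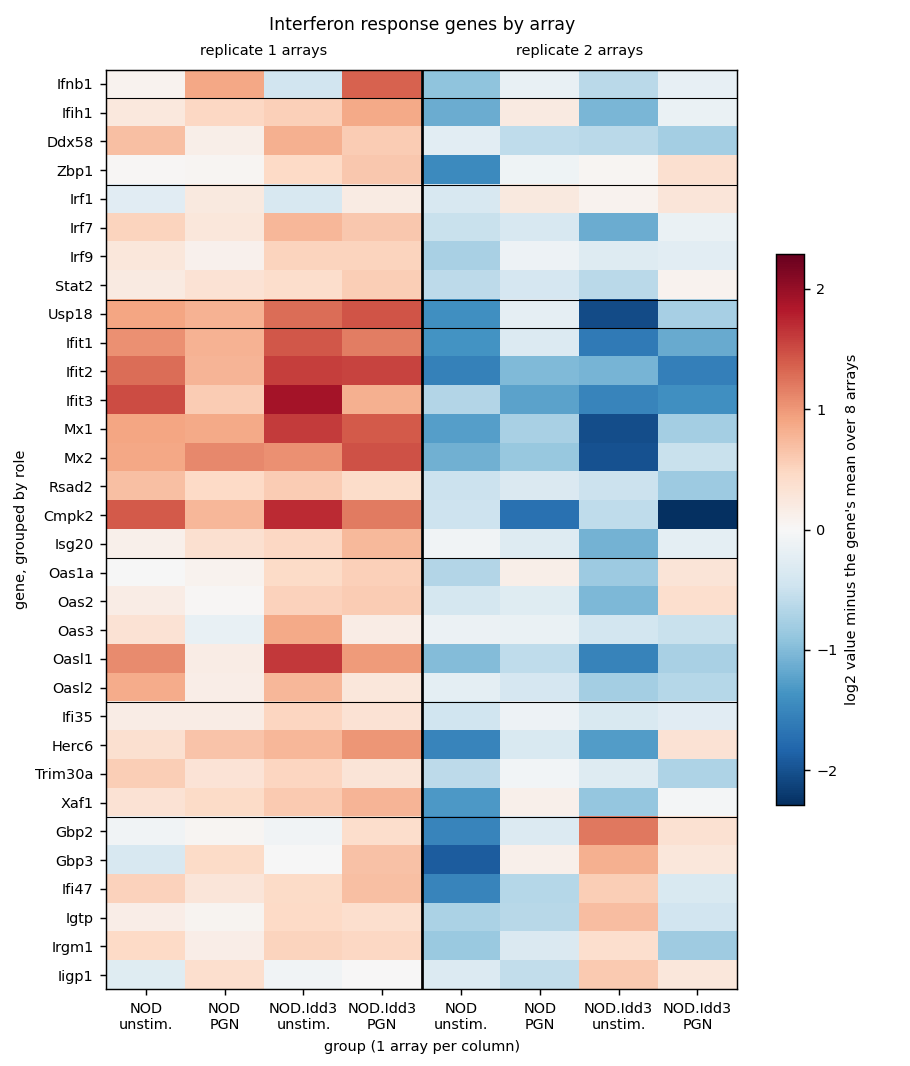
Heat map of log2 values by array, each row minus the gene's mean over the 8 arrays, with genes in rows grouped by role and arrays in columns, the 4 replicate 1 arrays left of the line and the 4 replicate 2 arrays right of it. Ifit, Mx, Cmpk2, Oasl1 and Usp18 rows are red on the left and blue on the right, and the GTPase rows at the bottom are red on the replicate 2 array of unstimulated NOD.Idd3.

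The Ifit genes encode proteins that bind foreign RNA and hold back its translation. In the values that follow, arrays are given in the order NOD unstimulated, NOD with PGN, NOD.Idd3 unstimulated and NOD.Idd3 with PGN, as log2 of the array value. Ifit2 stood at 10.69, 10.18, 10.998 and 10.95 on the replicate 1 arrays and at 7.86, 8.40, 8.34 and 7.84 on the replicate 2 arrays. No replicate 2 array reached any replicate 1 array, and the difference was -2.60 ± 0.21 (adjusted p = 0.00541, limma), a 6.04-fold lower value. Ifit3 gave 11.71, 10.80, 12.13 and 11.03 in replicate 1 and 9.54, 8.998, 8.71 and 8.82 in replicate 2, a difference of -2.40 ± 0.25 (adjusted p = 0.0109). For Ifit1 the values were 11.59, 11.34, 11.95 and 11.71 against 9.17, 10.23, 8.92 and 9.39, a difference of -2.22 ± 0.27 (adjusted p = 0.0186). The NOD array with PGN was the highest of the replicate 2 arrays for Ifit1, and lay below its replicate 1 partner with a log2 difference of -1.11. On chromosome 19 Ifit2 and Ifit3 are neighbours, with 3 protein-coding genes between Ifit3 and Ifit1.

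Mx1 and Mx2 encode dynamin-like GTPases that restrict viruses. Mx1 had values of 11.18, 11.15, 11.88 and 11.69 in replicate 1 and 9.02, 9.54, 8.24 and 9.50 in replicate 2, a difference of -2.40 ± 0.29 (adjusted p = 0.0171, limma). Mx2 had 8.49, 8.70, 8.65 and 9.06 against 6.503, 6.74, 5.62 and 7.10, a difference of -2.24 ± 0.20 (adjusted p = 0.00726). For both, the lowest array was replicate 2 of unstimulated NOD.Idd3. Rsad2 encodes viperin, a radical SAM enzyme that makes a chain-terminating nucleotide, and Cmpk2 a mitochondrial nucleotide kinase, and the genes are direct neighbours on chromosome 12. Cmpk2 stood at 9.75, 9.11, 10.07 and 9.53 in replicate 1 and at 7.87, 6.64, 7.77 and 6.06 in replicate 2. That is a difference of -2.53 ± 0.24 (adjusted p = 0.00866), 5.78-fold lower. Rsad2 differed by -1.08 ± 0.14 (adjusted p = 0.0224), from 13.34 to 13.60 in replicate 1 and from 12.08 to 12.58 in replicate 2. Its other 2 probe sets gave -2.46 and -1.65, so the size of the Rsad2 difference depends on the probe set. Cmpk2 had 1 other probe set, at -1.21. Isg20, an exonuclease gene, had no overlap between replicate numbers, with a difference of -0.85 ± 0.21 that did not pass (adjusted p = 0.103).

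The Oas enzymes make short oligoadenylates that activate RNase L, and Oasl1 and Oasl2 are related proteins. Oasl1 stood at 11.98, 11.06, 12.51 and 11.87 in replicate 1 and at 9.89, 10.31, 9.35 and 10.15 in replicate 2, a difference of -1.93 ± 0.33 (adjusted p = 0.0392, limma). Oasl2, its neighbour on chromosome 5, differed by -1.02 ± 0.18 (adjusted p = 0.0411). The 3 Oas genes did not pass. Their differences were -0.53 ± 0.22 for Oas1a, -0.66 ± 0.23 for Oas2 and -0.61 ± 0.21 for Oas3, with adjusted p of 0.252, 0.186 and 0.182. The values of each of the 3 overlapped between replicate numbers, and for Oas1a the NOD array with PGN was 10.37 in replicate 2 and 10.31 in replicate 1.

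Usp18 encodes a protease that removes the ubiquitin-like modifier ISG15 and damps the type I interferon receptor, so it belongs to the feedback arm. Its values were 10.73, 10.62, 11.10 and 11.27 in replicate 1 and 8.41, 9.62, 7.77 and 9.06 in replicate 2, a difference of -2.21 ± 0.31 (adjusted p = 0.0260, limma). Herc6, the ligase for the same modifier in mice, differed by -1.40 ± 0.24 (adjusted p = 0.0398), with all 3 of its other probe sets between -1.64 and -1.36. Among RNA sensors, Ddx58 (RIG-I) differed by -1.10 ± 0.16 and passed (adjusted p = 0.0290). Ifih1 (MDA5) differed by a like amount, -1.07 ± 0.21, and missed the threshold (adjusted p = 0.0614). Zbp1, a sensor of Z-form nucleic acid, stood at -0.57 ± 0.22 (adjusted p = 0.238).

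Of the transcription factors, Irf7, which drives the later interferon genes, was at -1.07 ± 0.21 (adjusted p = 0.0604, limma), and Stat2 at -0.75 ± 0.14 (adjusted p = 0.0514). Irf9, the DNA-binding partner of Stat2, was at -0.68 ± 0.16 (adjusted p = 0.0911). In none of these 3 did the replicate numbers overlap, and none passed. Of the remaining interferon-induced genes, Xaf1, a pro-apoptotic factor, was at -1.07 ± 0.22, Trim30a at -0.83 ± 0.16 and Ifi35 at -0.58 ± 0.14, with adjusted p of 0.0665, 0.0580 and 0.0974. Ifnb1, interferon beta itself, stood at 5.37, 6.17, 4.85 and 6.64 in replicate 1 and at 4.37, 5.12, 4.66 and 5.10 in replicate 2. The difference was -0.95 ± 0.21 (adjusted p = 0.0782) and the values overlapped. All 4 pairs were lower in replicate 2.

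Across the list, the replicate 2 arrays lay wholly below the replicate 1 arrays for 20 of 32 genes, against 2.06% of all genes. The 20 were the 12 that passed with Isg20, Irf7, Irf9, Stat2, Ifih1, Ifi35, Trim30a and Xaf1. In each of the 4 groups taken alone, replicate 2 was below replicate 1 for 24 of 32 genes, against 9.33% of all genes. A difference of -1 or lower on the log2 scale was seen for 15 of 32, against 0.852%. Before adjustment 28 of 32 had p under 0.05, against 17.9% of all genes. The median within-group difference was -1.24 in unstimulated NOD, where all 32 were below 0, and -0.68 in NOD with PGN (29 below 0). It was -1.35 in unstimulated NOD.Idd3 (26 below 0) and -0.95 in NOD.Idd3 with PGN (30 below 0).

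**Figure D2:**
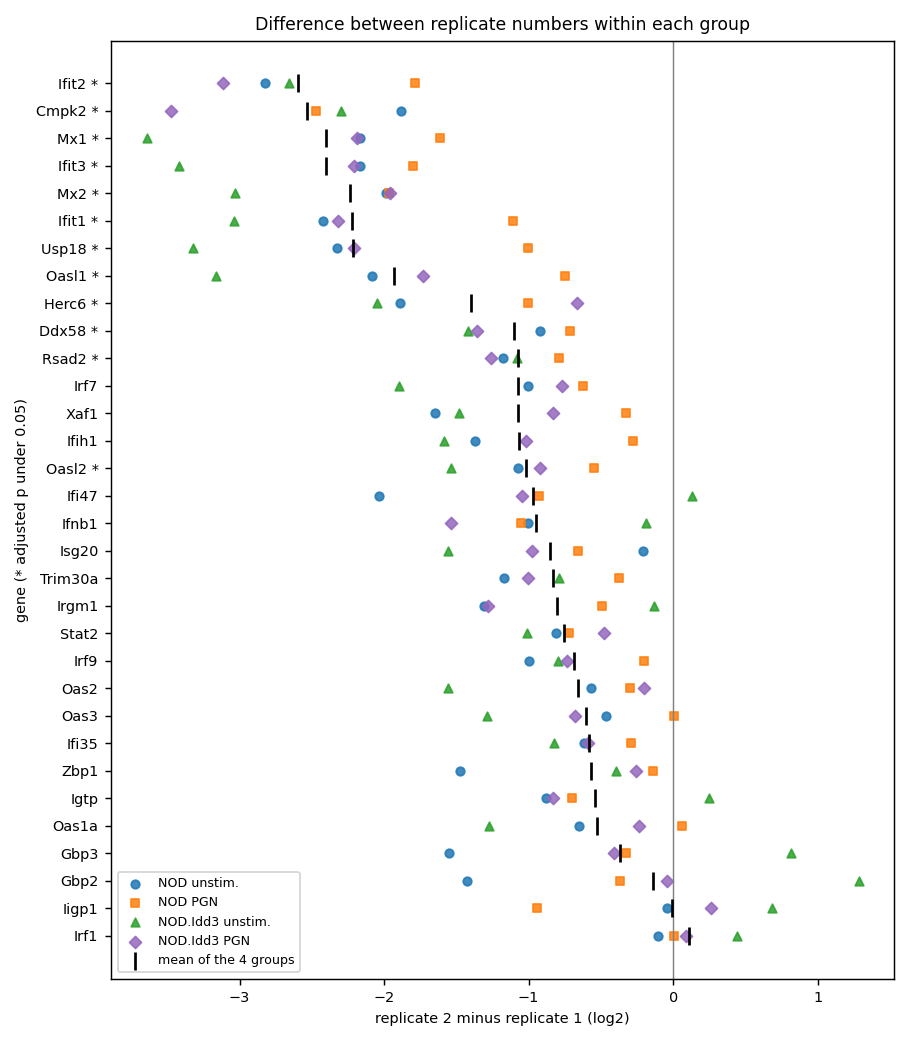
Log2 difference of replicate 2 minus replicate 1 within each of the 4 groups (coloured symbols) and their mean (black bar), with genes ordered by the mean and those past an adjusted p of 0.05 starred. The 8 genes at the top have means between -2.60 and -1.93, and the unstimulated NOD.Idd3 pair (triangles) is to the right of 0 for Gbp2, Gbp3, Ifi47, Igtp, Iigp1 and Irf1.

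The calls needed both NOD.Idd3 pairs. Without either array of unstimulated NOD.Idd3, or either array of NOD.Idd3 with PGN, no interferon response gene and no gene of the whole table passed in limma, and the 12 kept their sign with adjusted p up to 0.139 and 0.196. Without either array of unstimulated NOD 9 passed, with Oasl1, Oasl2 and Herc6 lost, and without either array of NOD with PGN 13 passed, with Herc6 lost. A variance prior that follows the mean value (limma's trend) gave 23 of 32, the 12 included. With the RR1 suffix of the array names as a term 13 passed, with Herc6 lost.

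The replicate number accounted for most of the variation of these genes. The sum of squares of each gene over the 8 arrays was divided among treatment, strain, replicate number and their interactions. The replicate number held a median of 68.6% of it in the 32 genes, PGN 7.003% and strain 2.32%. Over all genes the medians were 10.5% for replicate number, 21.9% for PGN and 7.11% for strain. The replicate number was the largest term for 25 of 32 genes, with 95.1% in Ifit2, 92.9% in Rsad2 and 89.4% in Ifit1. PGN was the largest term for Irf1 (76.1%) and Oas1a (32.7%), and strain for Gbp2 (42.0%), Zbp1 (38.4%), Igtp (31.4%) and Gbp3 (29.0%). A list of 10 genes of the usual PGN response had a median of 85.5% for PGN and 8.50% for replicate number.

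**Figure D3:**
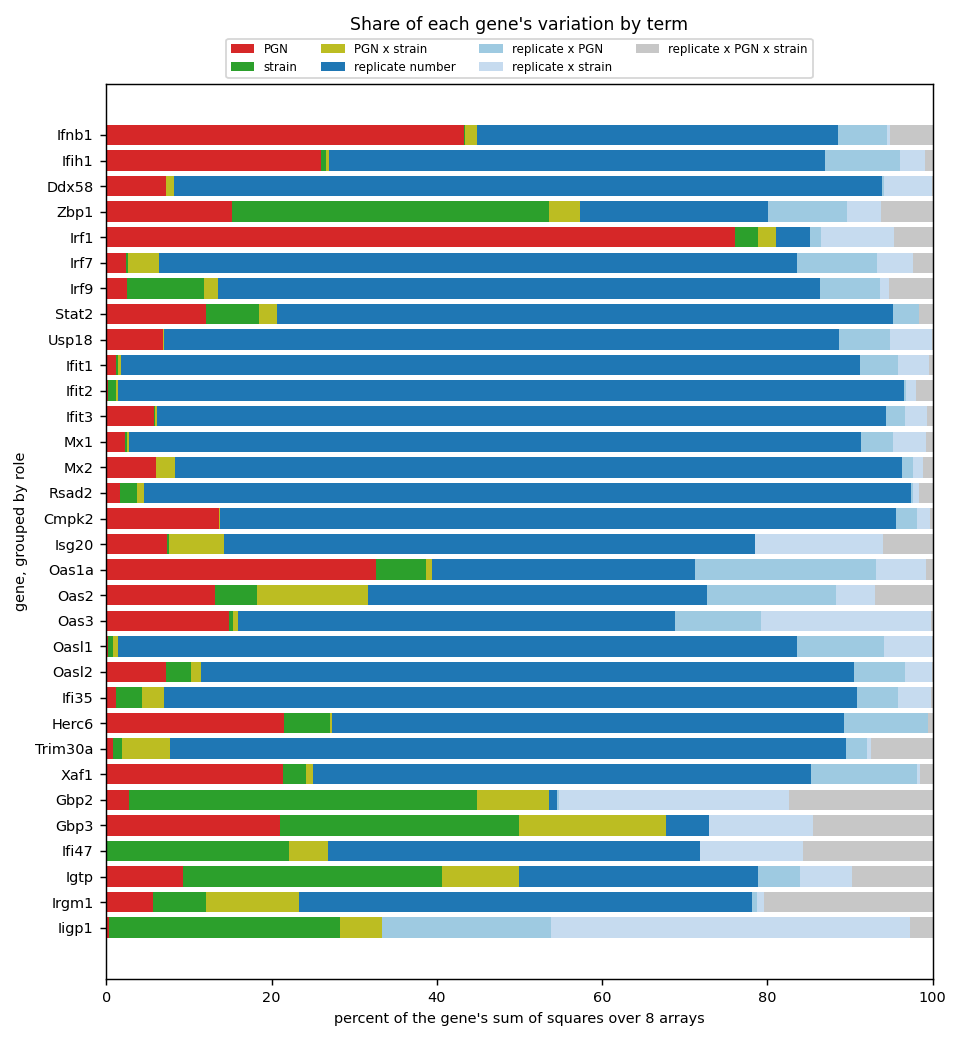
Stacked bars of the percent of each gene's sum of squares over 8 arrays held by PGN, strain, replicate number and their interactions, with genes grouped by role. Dark blue, the replicate number, is the longest segment in 25 of 32 genes, and red, PGN, is the longest in Irf1 (76.1%) and Oas1a (32.7%).

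Other genes of the interferon system were looked at in the same contrast. Of 60 measured other interferon-stimulated genes, 8 passed, all lower in replicate 2, against 0.786% of all genes called lower. Below 0 were 47 of the 60, with a median of -0.48. Phf11d was at -1.87 ± 0.17 and the chemokine gene Cxcl11 at -1.74 ± 0.18, with adjusted p of 0.00699 and 0.0112 (limma). Rtp4 was at -1.13 ± 0.16 (adjusted p = 0.0260), and Cxcl10, which attracts T cells, at -1.28 ± 0.19 (adjusted p = 0.0283). Of 25 interferon signalling genes none passed in limma (0), while 9 reached an unadjusted p under 0.05, against 17.9% of all genes. The smallest p was that of the adaptor Mavs, higher by 0.73 ± 0.14 (adjusted p = 0.0510). Of 12 interferon and receptor genes none passed either (0), and 2 reached an unadjusted p under 0.05, a share near that of all genes. The chains of the type I receptor were at 0.26 ± 0.16 for Ifnar1 and -0.01 ± 0.14 for Ifnar2. Ifng, interferon gamma, went the other way at 1.22 ± 0.45 (adjusted p = 0.212), with some of its values below their arrays' 25th percentiles. Isg15 was not analysed here.

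Some markers of cell types, CD11b+ monocytes among them, also moved with the replicate number. By the same test 0.473% of all genes were called higher in replicate 2. B cell markers were higher in replicate 2 for 4 of 11 genes, led by Blk (1.11 ± 0.16). Their summed level ran from 10.08 to 11.27 in replicate 1 and from 10.77 to 12.54 in replicate 2, as log2 of the sum. Of 8 monocyte markers 2 were higher, F13a1 (1.03 ± 0.14) and Fn1 (0.73 ± 0.13), with sums of 15.01 to 15.07 against 15.08 to 15.23. Of 13 T and NK cell markers 1 was higher, Gzma (1.99 ± 0.17), with sums of 11.47 to 12.46 against 12.01 to 12.99. Plasmacytoid dendritic cells are strong interferon producers, and of 9 markers 1 was higher, Spib (1.00 ± 0.15), a gene that B cells also express, with sums of 11.55 to 11.83 against 11.24 to 11.80. No neutrophil (10 genes), macrophage (12) or general CD11b+ cell marker (6) passed in limma, with 3, 2 and 1 at an unadjusted p under 0.05, a cut that 17.9% of all genes reached. No marker lay at or below the 25th percentile of its array on all 8 arrays. The part of these cells in the interferon gene difference was not tested. The array median of all genes, 6.38 to 6.65, overlapped between replicate numbers. The log2 ratio of 3′ over 5′ control probes for Gapdh was lower in replicate 2 in all 4 groups, at 1.08, 1.16, 0.803 and 0.771 in replicate 1 and 0.877, 0.924, 0.748 and 0.717 in replicate 2. That for Actb was lower in replicate 2 in NOD, at 0.425 and 0.480 against 0.537 and 0.580, and higher in NOD.Idd3, at 0.351 and 0.460 against 0.215 and 0.265. The part of RNA quality in the interferon gene difference was not tested.

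With PGN, by contrast, no interferon response gene passed in the fit without the replicate number. Averaged over strains, 0 of 32 passed in limma, against 11.3% of all genes, and 2 of 32 had an unadjusted p under 0.05, against 25% of all genes. This fit leaves the difference between replicate numbers in its error. For Ifit2 the SE was 0.91, and 0.21 once the replicate number was a term. With that term 3 of 32 passed, against 16.9% of all genes. The shares without that term depend on this error too, and in neither fit do shares measure the size of the PGN change in these genes. The median log2 change was 0.21, from -1.03 for Cmpk2 to 0.94 for Ifnb1, with 20 above 0 and 12 below, and that of all genes was 0.05. In the same cells 7 of 10 genes of the usual PGN response rose, with a median of 2.20 over the 10. The list median depended on single arrays, with -0.10 when replicate 2 of unstimulated NOD was left out and -0.15 when that of unstimulated NOD.Idd3 was.

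Irf1, a factor that NF-kB and interferon gamma both induce, was the only gene of the list with all PGN arrays above all unstimulated arrays, a pattern of 8.6% of all genes. Its unstimulated values were 11.83 and 11.72 in NOD and 11.72 and 12.16 in NOD.Idd3, replicates 1 and 2, and with PGN they were 12.31 and 12.32, and 12.28 and 12.37. The change was 0.46 ± 0.15 (adjusted p = 0.0950, limma), and 0.0465 with the trend in the variance prior. Ifnb1 was higher with PGN in all 4 pairs of strain and replicate number, by 0.80 and 0.75 in NOD and by 1.79 and 0.43 in NOD.Idd3. Its change of 0.94 ± 0.38 did not pass (adjusted p = 0.168). Unstimulated Ifnb1 values, 4.37 to 5.37, lay near the arrays' 25th percentiles (4.28 to 4.57), so the size of its changes is limited by background. The replicate numbers were taken to pair the arrays, and once the fit included this number Ifnb1 passed (adjusted p = 0.0179), as did Herc6 at 0.83 (0.0495) and Cmpk2 at -1.03 (0.0212), 3 of 32 against 16.9% of all genes. Cmpk2 fell in this fit while Ifnb1 and Herc6 rose. In the fit without the replicate number, the type I receptor chain Ifnar2 rose by 0.54 ± 0.15 (adjusted p = 0.0481). The interferon gamma receptor chain Ifngr1 fell by 0.96 ± 0.16 (adjusted p = 0.00700). That was 1 rise and 1 fall among 12 interferon and receptor genes, while 11.3% of all genes passed in either direction.

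**Figure D4:**
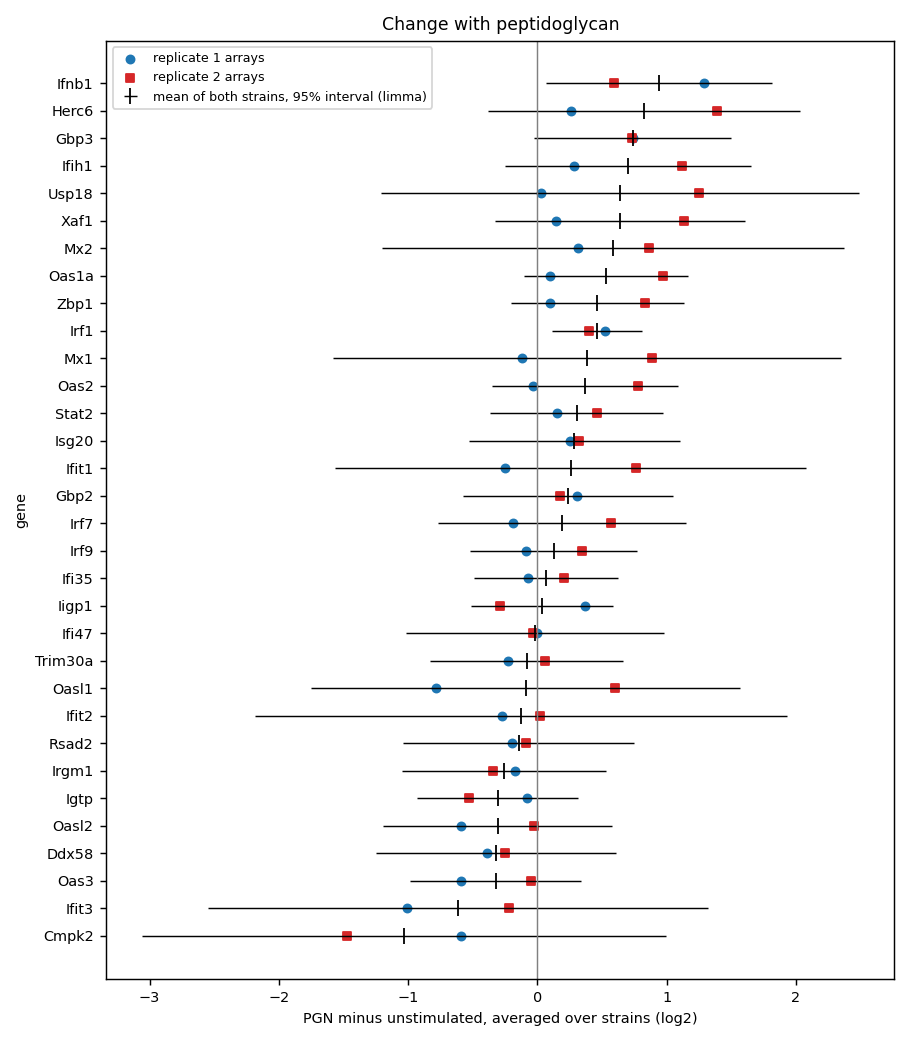
Log2 change with PGN averaged over strains, with the 95% interval of the limma fit without the replicate term (black) and the same change within the replicate 1 arrays (blue circles) and the replicate 2 arrays (red squares). The widest intervals belong to Cmpk2, Ifit2, Mx1 and Ifit3, and the red square is right of the blue circle for Usp18, Herc6, Xaf1 and Oasl1.

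The PGN change was looked at within each replicate number. Its median was -0.05 on the replicate 1 arrays, with 14 of 32 genes above 0, and 0.37 on the replicate 2 arrays, with 22 above 0. Usp18 went from 0.03 in replicate 1 to 1.25 in replicate 2, Oasl1 from -0.78 to 0.60 and Herc6 from 0.26 to 1.39. By the interaction of PGN and replicate number 0 of 32 passed in limma, as over all genes, and 8 of 32 (25%) had an unadjusted p under 0.05, against 4.89% of all genes. The smallest p was that of Herc6, with a difference between the PGN changes of 1.13 ± 0.28 (adjusted p = 0.679). So a larger PGN change in replicate 2, where the unstimulated values were lower, was not established for any gene.

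In each strain taken alone 0 of 32 passed for PGN in limma, against 3.94% of all genes in NOD and 3.14% in NOD.Idd3. Unadjusted p under 0.05 was reached by 2 of 32 genes in NOD (6.25%, against 19.2% of all genes) and 0 of 32 in NOD.Idd3 (against 15.4%). This fit too leaves the replicate difference in its error. With the replicate number as a term 0 of 32 passed in either strain, against 8.72% of all genes in NOD and 6.63% in NOD.Idd3. More of the 32 then had an unadjusted p under 0.05 in each strain, and the share of all genes at that cut in this fit is not given here. Shares that pass depend on the error as well as on the change, so in neither fit do they measure the size of the PGN change. The medians were 0.19 in NOD and 0.07 in NOD.Idd3. Gbp3 in NOD had the largest change, 1.41 ± 0.48 (adjusted p = 0.147). Without replicate 1 of unstimulated NOD, Gbp3 (2.19, adjusted p = 0.0230) and Zbp1 (1.43, adjusted p = 0.0319) passed in NOD, and both also passed for the averaged change. The NOD median was -0.44 without replicate 2 of unstimulated NOD. The NOD.Idd3 median was -0.47 without replicate 2 of unstimulated NOD.Idd3 and -0.34 without replicate 1 of NOD.Idd3 with PGN. The strains' PGN changes did not differ for any of the 32 by the interaction test (0 passed here and over all genes, and 0 of 32 had an unadjusted p under 0.05, against 1.73%). For Gbp3 that difference was -1.35 ± 0.67.

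No strain difference passed in these genes. In unstimulated cells the differences, NOD.Idd3 minus NOD, ran from -0.36 to 1.54 with a median of 0.13. There 0 of 32 passed in limma, with 0 over all genes, and 3 of 32 had an unadjusted p under 0.05 (9.38%, against 3.36% of all genes). These were Gbp3 at 1.54 ± 0.48, Gbp2 at 1.36 ± 0.50 and Zbp1 at 0.97 ± 0.42, all higher in NOD.Idd3. With PGN 0 passed and 0 reached an unadjusted p under 0.05, against 5.41% of all genes. Averaged over conditions 0 passed and 3 reached an unadjusted p under 0.05, against 6.46%. On the replicate 1 arrays alone, 26 of 32 genes were higher in unstimulated NOD.Idd3 (median 0.30) and 28 with PGN (median 0.36). On the replicate 2 arrays 17 were higher in unstimulated NOD.Idd3 (median 0.04) and 14 with PGN (median -0.08). The median over both replicates had its sign turned when single arrays were left out, as in unstimulated cells to -0.47 without replicate 2 of NOD and -0.55 without replicate 1 of NOD.Idd3.

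Gbp3 and Gbp2 are 2 of the 6 interferon-inducible GTPase genes on the list, and their strain difference was seen on the replicate 2 arrays. Gbp2 and Gbp3 encode guanylate-binding proteins, and Ifi47, Igtp, Irgm1 and Iigp1 immunity-related GTPases that act at the vacuoles of intracellular microbes. Gbp2 stood at 11.01 in unstimulated NOD and 11.01 in unstimulated NOD.Idd3 on the replicate 1 arrays, and at 9.58 and 12.29 on the replicate 2 arrays. Gbp3 stood at 10.03 and 10.39 in replicate 1 and at 8.48 and 11.20 in replicate 2. For Ifi47 the same arrays gave 11.69 and 11.60, then 9.65 and 11.73. Over the 6 genes the unstimulated strain difference ran from -0.09 to 0.36 in replicate 1 and from 0.91 to 2.72 in replicate 2, with medians of 0.12 and 1.75. With PGN the medians were 0.31 and 0.25. On the replicate 2 arrays of NOD.Idd3 all 6 were lower with PGN than without, with a median of -0.89. Whether the strain difference differs between replicate numbers was not tested, since each such value rests on 1 array per strain. Iigp1, at 3.67 to 4.83, lay near the 25th percentile of the arrays (4.28 to 4.57), so its differences are limited by background.

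**Figure D5:**
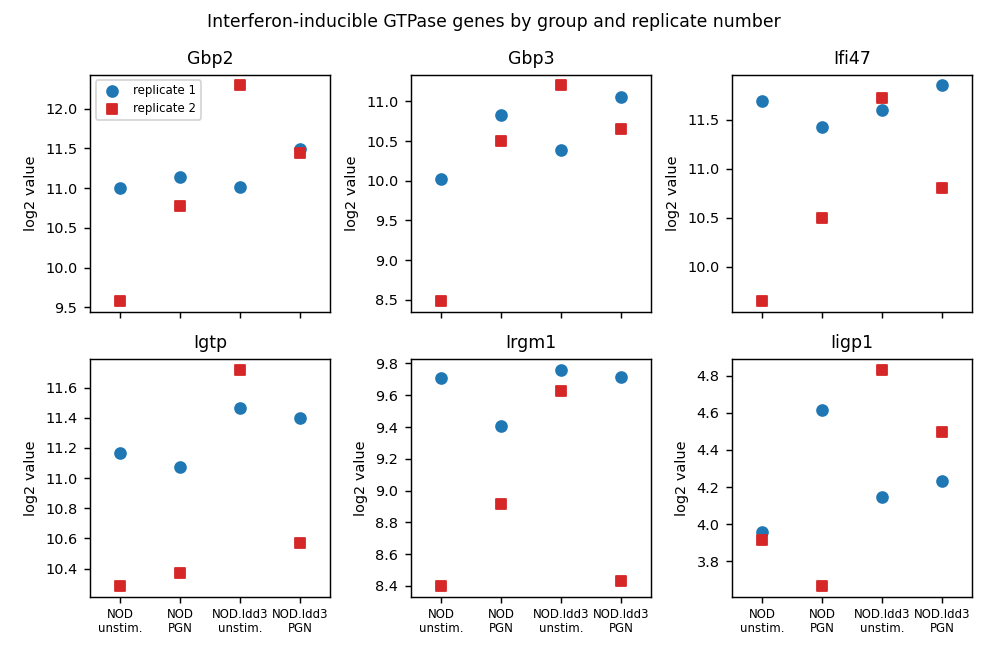
Log2 values of the 6 interferon-inducible GTPase genes by group, with replicate 1 arrays as blue circles and replicate 2 arrays as red squares, on an axis of its own for each gene. In unstimulated NOD.Idd3 the red square is above the blue circle for all but Irgm1 (Gbp2 12.29 against 11.01), and in unstimulated NOD it is below it for Gbp2, Gbp3, Ifi47, Igtp and Irgm1.

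The replicate difference of the GTPase genes varied between groups. Of the 6, 0 passed for the replicate number and 3 reached an unadjusted p under 0.05, against 1.26% and 17.9% of all genes. The differences were -0.97 ± 0.30 for Ifi47 (adjusted p = 0.152, limma), -0.80 ± 0.22 for Irgm1 and -0.54 ± 0.20 for Igtp. Gbp3 was at -0.37 ± 0.32, Gbp2 at -0.14 ± 0.36 and Iigp1 at -0.01 ± 0.24. In unstimulated NOD.Idd3, 5 of 6 were higher in replicate 2, with a median of 0.47, and of the other 26 genes 1 was higher, Irf1. Over all genes 10303 of 18193 were higher there. The median share of variation of the 6 GTPase genes was 28.5% for strain and 17.1% for replicate number, and in the other 26 genes 0.743% and 78.2%. Ifng was highest on the replicate 2 arrays with PGN, at 6.65 in NOD and 7.90 in NOD.Idd3. In unstimulated cells it was at 4.57 and 3.71 in NOD and 3.72 and 5.37 in NOD.Idd3, replicates 1 and 2. The values 3.71 and 3.72 lay below their arrays' 25th percentiles (4.29 and 4.28), so the size of Ifng differences is limited by background. The change of Ifng with PGN was 1.91 ± 0.60 (adjusted p = 0.0819). Between the unstimulated strains, B cell and macrophage markers had median differences, NOD.Idd3 minus NOD, of -1.43 over 11 and -1.02 over 12 genes. None of these markers passed in limma, and 9 and 8 had an unadjusted p under 0.05, against 3.36% of all genes. Their part in the GTPase values was not tested.

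Among genes outside the list, 7 of 25 interferon signalling genes rose and 1 fell with PGN averaged over strains, against 11.3% of all genes called in either direction. Socs3 rose by 2.42 ± 0.29 and Socs1, which blocks the kinases of the interferon receptors, by 1.32 ± 0.23, with adjusted p of 0.00141 and 0.00797 (limma). The kinase gene Ikbke rose by 1.501 ± 0.30 (adjusted p = 0.0140) and Stat3 by 0.76 ± 0.16 (adjusted p = 0.0160). Of 60 other interferon-stimulated genes 5 rose and 3 fell, a share near that of all genes, with Ido1 at 2.04 ± 0.37, Nos2 at 2.83 ± 0.57, Samhd1 at -1.07 ± 0.16 and Ly6e at -0.77 ± 0.15. Cxcl10 was at -0.55 ± 0.47 (adjusted p = 0.518).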

How the data were processed

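RNA of 8 samples was measured on 1-channel arrays. The values are linear intensity values per probe set that the authors deposited. RMA is named in the submitters' processing notes, with a version and chip definition not given in the sources used here. Of 45101 probe sets, 64 were controls, 9160 had no symbol and 932 had several. The remaining 34945 had 1 symbol, of which 34741 matched RefSeq (GRCm38.p6), and 1 probe set per gene left 18193 genes. The log2 of the deposited values was fitted with limma 3.58.1 in R 4.3.3 (lmFit, eBayes), over all 8 arrays with 4 group means and no replicate term. The replicate contrasts add the replicate number. Residual degrees of freedom were 4 (prior 4.69), and 3 with the replicate block. P-values were adjusted over all genes by Benjamini and Hochberg, with a threshold of 0.05. The number of arrays limits the precision.

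The replicate 1 minus replicate 2 differences correlated across genes between groups at r from 0.167 to 0.415 over 6 pairs, so the numbers were taken to pair the arrays. All 32 genes are named. From the other interferon lists up to 4 genes by smallest p among those that passed are named, or the one with the smallest p, with up to 3 from marker lists, and Ifng, Ifnar1, Ifnar2 and Cxcl10 always. The genes, lists and tests were chosen with earlier results of these data known. The fits were tested on simulated data. Alternatives covered the replicate block, variance prior, probe set choice, a filter on dim genes, normalization, the RR1 suffix of 3 array names and leaving out each array.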

Additional observations from a re-analysis of the deposited data

How the results depend on the processing

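Of 1190 values recomputed under the alternatives, 1061 were counted as unchanged, 129 were not, and 0 reversed a call. A gene counted as unchanged if it stayed on its side of the threshold. Its sign was compared only where it passed in either fit, so genes that passed in neither could change direction. A median counted as unchanged within the replicate spread, and a count of passing genes if it moved moderately, as from 12 to 16. For PGN averaged over strains 0 of 32 genes passed, 3 with the replicate block and 1 with the trend in the variance prior, and 0 to 2 with 1 array left out (median -0.15 to 0.54). The replicate block changed no other call in these genes. For the replicate number 12 passed, 23 with the trend, and 0 to 13 with 1 array left out (median -0.99 to -0.87). The median difference of the PGN change between replicate numbers was 0.37, and 0.49 with genes under the 40th percentile removed, where 30 of the 32 were left. It was 0.23 to 0.58 with 1 array left out, and 0 passed. With 1 array left out, PGN in NOD had 0 to 2 passes and a median of -0.44 to 0.74. PGN in NOD.Idd3 had 0 and -0.47 to 0.76, and the strain difference of the PGN change 0 and -0.77 to 0.69. The strain difference had 0 passes and medians of -0.55 to 0.86 unstimulated, -0.33 to 0.66 with PGN and -0.21 to 0.54 over both. A lone array left in a group is assumed to vary like the other groups. The cause of these shifts was not tested. With 2 arrays a group and 4 residual degrees of freedom, moderate differences cannot be shown, and dim probe sets such as that of Iigp1 understate differences.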

Other observations

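Of the 32 genes, 11 had other probe sets, 16 in all. For 15 of these 16 the difference between replicate numbers had the sign of the probe set used, and for 1, of the dim gene Iigp1, it had the other (0.04 against -0.01). The sizes differed more, with -1.28 for the other probe set of Trim30a against -0.83 for the one used, and -0.60 for that of Xaf1 against -1.07.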
